A study of Homo sapiens with 6 samples.

Results

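The clustered histone genes of U2932 cells are described here, taken as every gene of the authors' deposited table whose symbol begins with HIST1H, HIST2H, HIST3H or HIST4H. The table held 64 such genes among 34675, and none of them was a pseudogene in GENCODE 29. By class they were 6 H1, 14 H2A, 17 H2B, 13 H3 and 14 H4 genes. By cluster, 53 lay in HIST1 on chromosome 6, 7 in HIST2 and 3 in HIST3 on chromosome 1, and 1 in HIST4 on chromosome 12. U2932, an established cell line, derives from a human diffuse large B cell lymphoma, a tumour of mature B cells. The cells received a hairpin RNA that targets PRDM11, a PR domain protein (3 samples), or a scrambled hairpin (3 samples), and all 6 samples were selected with puromycin for 3 days before RNA sequencing. The labels name 1 hairpin sequence for the knockdown, and no source says whether the samples were separate cultures, so p-values reflect only how much these samples vary. The values came as 1 comparison of conditions named A and B, and neither the labels nor the headers say which of them is the knockdown. Every difference is therefore given as condition A over condition B, on the log2 scale.

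Replication-dependent histone genes supply the proteins that package new DNA and are transcribed mainly during S phase. H2A, H2B, H3 and H4 form the core of the nucleosome, while H1 binds the linker DNA between nucleosomes. Most of these genes lack introns, and their messages end in a conserved stem-loop bound by SLBP in place of a poly(A) tail, although some of them also give polyadenylated transcripts in cells that have stopped dividing. The labels give total RNA and the maker's standard library protocol. Whether poly(A) RNA was selected is not given in the sources used here, and a histone message without a tail is captured differently under the 2 kinds of protocol.

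PRDM11 itself, the gene the hairpin targets, had 268, 272 and 323 normalised reads in the libraries under A, against 565, 516 and 545 under B. The authors' deposited table gave it a log2 ratio of -0.91 (DESeq adjusted p = 1.76e-08). A value cannot assign the conditions, so the letters are kept, and values of a condition are given as being under A or under B. Normalised reads are read counts that the authors divided by a size factor for each library. The reads of each library were recovered from the printed means and are numbered by falling size factor, with no link to a replicate number of the labels. Recovered reads came to between 11833947 and 18654568 per library over rows that hold 35.1% of the summed mean under A and 37.8% under B, so the full depth was larger. The 6 B cell markers looked at had means between 1792 and 77768 normalised reads by the authors' deposited table, so B cell genes were abundant. The authors' deposited table had CD79B, a subunit of the B cell receptor, higher under A (log2 ratio 0.42, DESeq adjusted p = 0.0226). Of 8 markers of other cell types, 7 had a row and 0 were called by DESeq, with 0 at an unadjusted p under 0.05 and 0 of 4 tested by limma. Their summed means were 1398 under A and 1352 under B by the authors' deposited table, of which the epithelial gene EPCAM had a mean of 1263 over both.

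The stem-loop that ends these messages is shown for 8 members, because its position shows how far an annotated transcript runs past the usual end of a histone message. Each line holds the stem-loop in capitals with 5 bases on either side, in the sense of the gene, from GENCODE 29 transcripts.
HIST2H2BE: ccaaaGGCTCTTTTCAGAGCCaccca
HIST1H2BF: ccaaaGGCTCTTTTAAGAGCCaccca
HIST1H2BG: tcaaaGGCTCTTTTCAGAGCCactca
HIST1H2AC: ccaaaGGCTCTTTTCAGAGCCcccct
HIST1H3H: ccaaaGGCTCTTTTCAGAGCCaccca
HIST1H4H: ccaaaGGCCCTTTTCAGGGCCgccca
HIST1H4E: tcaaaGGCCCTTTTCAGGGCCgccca
HIST1H4I: aaaaaGGCCCTTTTTAGGGCCcctaa

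In all, 28 of the 64 members had such a stem-loop in an annotated transcript, in 6 forms. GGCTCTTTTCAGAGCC was the most frequent, in 14 members, and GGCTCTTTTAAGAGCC stood in 5. The forms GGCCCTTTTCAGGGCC (5 members) and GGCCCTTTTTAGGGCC (2 members) were found in H4 genes alone among these 28. An annotated transcript ran on for 1729 bases past the stem-loop in HIST2H2BE, 1655 in HIST1H4H, 1128 in HIST1H2AC, 1059 in HIST1H2BG and 212 in HIST1H4I. At least 100 further bases were annotated in 21 members, of which 8 were called higher under A by the authors' deposited table, with a median mean of 54.5 normalised reads. Another 7 members ended within 100 bases of the stem-loop (1 called, median 27.2), and 36 had none in their annotated transcripts (7 called, median 14.03). Several of those 36 are annotated over their coding part alone, such as HIST1H2BK at 381 bases, so the absence says nothing about the message. Over all 34675 rows 0.966% were called higher under A, and 2.18% of those with a mean of at least 50. The 21, 7 and 36 members also differed in median level, and a link between annotated length and calls was not tested. Reads were counted per gene, and the tailed and untailed forms cannot be told apart in these values.

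The stretch of 250 bases before the start is shown for 5 members that differ in level and in response: HIST2H2BE and HIST1H2BK, both called, HIST1H2BN, an H2B gene at equal levels in both conditions, HIST1H4I, the member with the largest log2 ratio of those whose mean was 10 or more, and HIST1H1C, the main H1 gene here. Sequences are from RefSeq on GRCh38.p14, read toward the gene, and capitals mark the octamer ATTTGCAT, the CCAAT box and the TATA box TATAAA on either strand.
HIST2H2BE (chr1:149886683-149886932, minus strand): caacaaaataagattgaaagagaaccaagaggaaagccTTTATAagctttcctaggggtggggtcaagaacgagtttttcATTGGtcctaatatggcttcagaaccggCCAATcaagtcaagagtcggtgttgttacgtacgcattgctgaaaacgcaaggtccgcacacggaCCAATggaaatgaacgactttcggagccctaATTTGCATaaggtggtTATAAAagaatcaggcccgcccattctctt
HIST1H2BK (chr6:27146859-27147108, minus strand): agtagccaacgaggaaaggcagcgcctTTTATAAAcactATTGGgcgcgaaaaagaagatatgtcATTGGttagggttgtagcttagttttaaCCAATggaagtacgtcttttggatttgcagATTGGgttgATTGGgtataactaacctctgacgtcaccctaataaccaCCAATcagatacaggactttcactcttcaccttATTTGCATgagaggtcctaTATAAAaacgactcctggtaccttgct
HIST1H2BN (chr6:27838319-27838568, plus strand): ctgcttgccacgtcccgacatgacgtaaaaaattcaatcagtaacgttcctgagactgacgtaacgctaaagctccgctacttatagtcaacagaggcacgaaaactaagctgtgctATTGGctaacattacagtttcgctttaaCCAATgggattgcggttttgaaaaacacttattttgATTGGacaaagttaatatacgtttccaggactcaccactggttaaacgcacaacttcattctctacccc
HIST1H4I (chr6:27139032-27139281, plus strand): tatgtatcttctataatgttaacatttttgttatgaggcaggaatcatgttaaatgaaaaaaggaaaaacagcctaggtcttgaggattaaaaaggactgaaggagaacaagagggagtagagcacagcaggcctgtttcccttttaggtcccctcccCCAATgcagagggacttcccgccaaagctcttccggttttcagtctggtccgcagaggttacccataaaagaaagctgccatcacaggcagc
HIST1H1C (chr6:26056471-26056720, minus strand): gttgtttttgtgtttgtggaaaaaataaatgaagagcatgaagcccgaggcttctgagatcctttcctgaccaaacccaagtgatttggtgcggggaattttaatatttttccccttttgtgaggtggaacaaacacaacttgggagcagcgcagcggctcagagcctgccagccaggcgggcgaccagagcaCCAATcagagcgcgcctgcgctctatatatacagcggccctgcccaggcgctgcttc

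The octamer, a site for POU2F1 (OCT1) in H2B promoters, began at position -46 in both HIST2H2BE and HIST1H2BK, and no octamer was in the windows of HIST1H2BN, HIST1H4I or HIST1H1C. RefSeq promoter windows, 250 bases before to 50 after the start, were matched for 59 of the 64 members. The octamer was in 24 of them (40.7%), against 1.80% of all 27305 promoters. It was in 13 of 17 H2B and 10 of 13 H2A windows, 1 of 11 H3 windows and 0 of 6 H1 and 0 of 12 H4 windows. Windows of neighbouring divergent H2A and H2B genes overlap, so 1 octamer can be counted for both genes. Among members with a window, 8 of 15 called and 16 of 44 uncalled ones held an octamer. Called and uncalled members also differed in class and in read level, and a link between the octamer and the calls was not tested.

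The CCAAT box, bound by NF-Y, was in 50 of the 59 windows (84.7%), against 35.7% of all promoters, and H4 genes had it in 3 of 12. TATAAA was in 38 windows (64.4%), against 11.95% of all, with 9 of 15 called and 29 of 44 uncalled members. The H1 box AAACACA was in 8 member windows, all 6 of H1 among them, and in 5.76% of all promoters. Searched on both strands in the same way, the AP-1 site TGACTCA was in 0 of the 59 windows and 4.92% of all promoters, the E2F site TTTGGCGC in 0 and 0.659%, and the EGR site GCGTGGGCG in 0 and 0.784%. Such matches describe letters in these windows and no more.

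Of the 64 histone genes, 16 were higher under A and 0 lower at a DESeq adjusted p under 0.05 by the authors' deposited table, where 2.54% of all 34675 rows were called, 0.966% as higher and 1.57% as lower. At an unadjusted p under 0.05 the numbers were 21 higher and 1 lower, and limma on the recovered reads of 39 members gave 18 higher and 1 lower, against 3.44% and 5.6% of all rows tested. With 1 library left out, limma called 8 members when library 2 of either condition was dropped and 9 when library 3 of condition B was, all of them higher. Calls over all rows fell in the same fits, to 391 of 15475 rows without library 2 of condition A, 361 of 15465 without library 2 of condition B and 376 of 15478 without library 3 of condition B, against 1399 of 15483 with all libraries. The 16 comprised HIST1H1C, HIST1H2AM, 7 H2B genes, 4 H3 genes and 3 H4 genes. Most calls were of genes with many reads. Among rows with a mean of at least 50 normalised reads, 12 of 20 members were higher, against 2.18% of all such rows (3.86% were lower), and among the 19 members with a mean of 10 to 50, 4 were.

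Counted without a threshold, most members with enough reads lay on the same side. With a mean of at least 10 there were 39 members, of which 31 had a log2 ratio above 0 and 8 below by the authors' deposited table. Their median was 0.69, with a range of -0.84 to 1.93, while the median of all rows with a mean of at least 10 was -0.0033 and their percentiles 5 and 95 were -0.56 and 0.52. In 21 of the 39 every recovered library of condition A lay above every library of condition B, against 13.9% of all rows, and in 1 every library lay below, against 17% of all. Summed over the 64 members, the libraries held 11717, 11319 and 10407 normalised reads under A, against 8091, 7769 and 7756 under B. The sums of the conditions did not overlap and averaged 11148 ± 672 under A and 7872 ± 190 under B (SD, n = 3 libraries each), a log2 ratio of 0.50. In bulk RNA, such as here, more cells in S phase and more histone message per cell cannot be told apart.

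**Figure D1:**
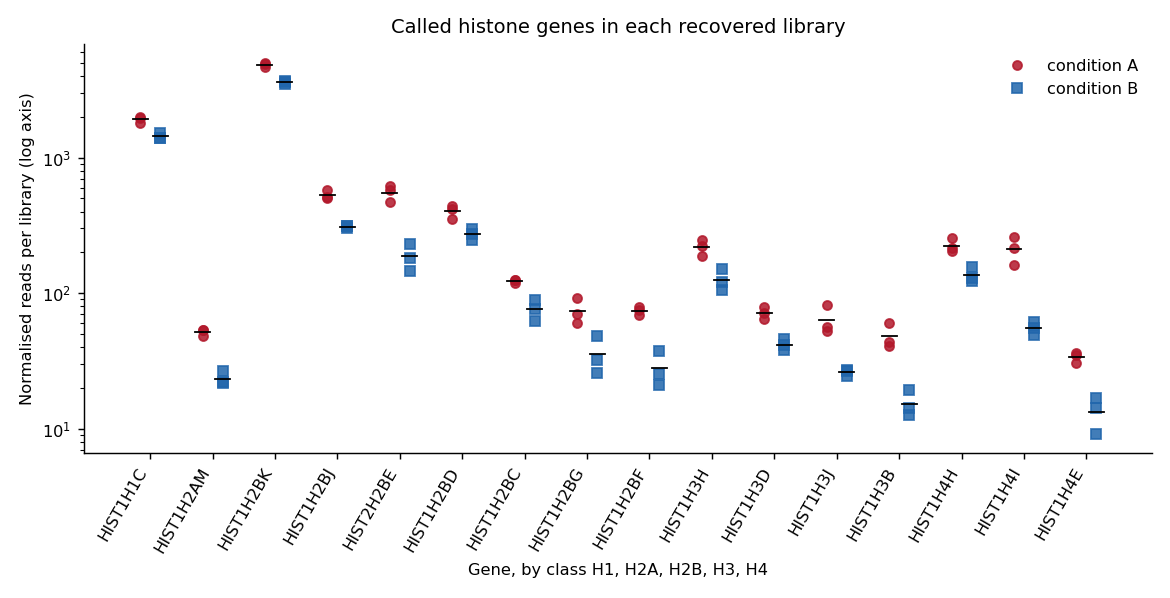
Normalised reads of the 16 called histone genes in each recovered library, on a log axis, with 3 red circles for condition A left of 3 blue squares for condition B and black lines for the means. For all 16 genes the 3 libraries of condition A lay above those of condition B, from HIST1H2BK at a mean of 4834 against 3597 to HIST1H4E at 34.0 against 13.4 (condition A against condition B).

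**Figure D2:**
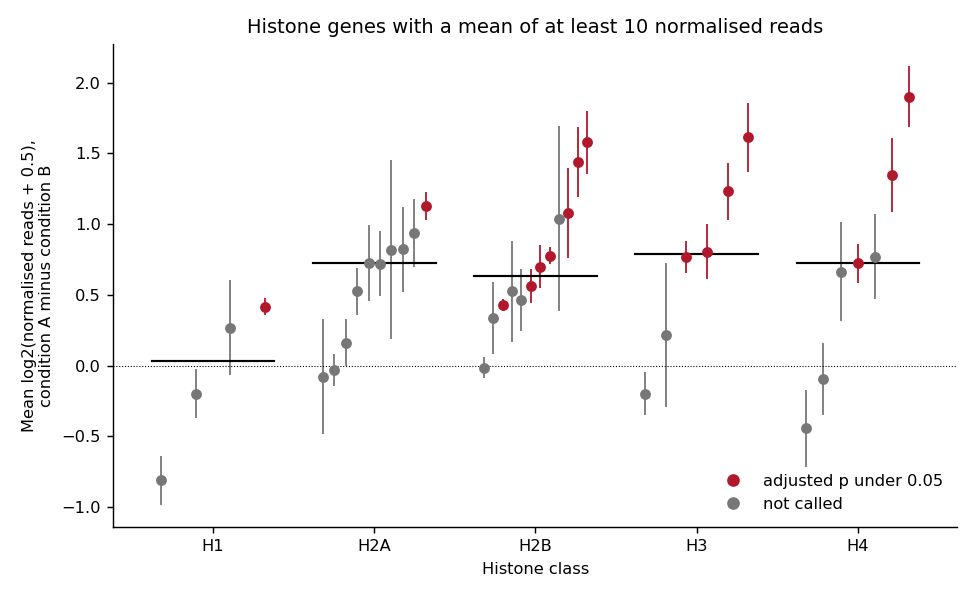
Difference of the mean log2(normalised reads + 0.5), condition A minus condition B, for the 39 histone genes with a mean of at least 10, by class, with standard errors over libraries and a black line at each class's median. Red points are called by the authors' deposited table. HIST1H4I lies highest and HIST1H1B, an H1 gene, lowest.

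Linker histone reads came almost wholly from HIST1H1C, an H1 gene whose mean was 92.7% of the class's. HIST1H1C (coding part at chr6:26056018-26056656 on hg19, minus strand) had 1992, 1957 and 1786 normalised reads in the 3 libraries under A, against 1504, 1397 and 1399 under B. All of condition A lay above all of condition B, and the authors' deposited table gave a log2 ratio of 0.42 (SE 0.12, taken from the deposited p, DESeq adjusted p = 0.0216). HIST1H1E, the next by reads, had 80.2, 60.5 and 105 under A, against 84.3, 47.6 and 72.6 under B. Its libraries overlapped, and its deposited log2 ratio was 0.27 (the authors' deposited table, DESeq adjusted p = 1).

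HIST1H1B, also a linker histone gene, stood on the other side. It had 23.2, 24.4 and 27.3 normalised reads under A, against 55.0, 39.0 and 40.0 under B, and was the 1 member of the 39 whose condition A libraries all lay below those of condition B. Its log2 ratio was -0.84 and its DESeq adjusted p 0.123 by the authors' deposited table. On the recovered reads limma gave -0.81 (SE 0.22, adjusted p = 0.0412), so the call depended on the tool. HIST1H1D had a log2 ratio of -0.19 by the authors' deposited table with overlapping libraries, and HIST1H1A and the testis gene HIST1H1T had means under 2 normalised reads in both conditions.

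Among H2A genes, which pair with H2B, 1 of 14 was called. HIST1H2AM (coding part at chr6:27860538-27860927 on hg19, minus strand) had 48.8, 53.6 and 53.4 normalised reads under A, against 26.6, 21.9 and 22.1 under B. Its libraries did not overlap, and its log2 ratio was 1.14 (SE 0.30, DESeq adjusted p = 0.0103) by the authors' deposited table. In GENCODE 29 it overlaps HIST1H3J on the same strand, so reads of these neighbours may be shared.

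The H2A gene with the most reads, HIST1H2AC, had 502, 408 and 397 normalised reads under A, against 426, 444 and 459 under B. These libraries overlapped, with a log2 ratio of -0.02 by the authors' deposited table (DESeq adjusted p = 1). This gene held 45.6% of the class's reads. HIST1H2AG had 286, 277 and 207 under A, against 194, 165 and 171 under B. Its libraries did not overlap, with a log2 ratio of 0.54 and a DESeq adjusted p of 0.0567 by the authors' deposited table (limma 0.53, adjusted p = 0.0449). HIST1H2AE had 67.0, 107 and 66.4 under A, against 39.4, 47.6 and 55.7 under B (log2 ratio 0.75, DESeq adjusted p = 0.314, the authors' deposited table).

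Weaker H2A genes lay on the same side without a call. In the authors' deposited table HIST1H2AL had a log2 ratio of 0.99 (DESeq adjusted p = 0.138; limma 0.94, adjusted p = 0.0414), HIST1H2AI 0.82 (DESeq adjusted p = 0.17) and HIST1H2AK 0.76 (DESeq adjusted p = 0.528). Condition A lay above condition B in every library for these genes. HIST3H2A and HIST2H2AC, outside the HIST1 cluster, had log2 ratios of 0.16 and -0.03 by the authors' deposited table, with overlapping libraries.

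H2B genes held the most histone reads and the most calls, 7 of 17. HIST1H2BK alone had 72.9% of the class's reads, with 5010, 4866 and 4626 normalised reads under A, against 3631, 3678 and 3483 under B. The conditions did not overlap, at a log2 ratio of 0.43 (SE 0.11, DESeq adjusted p = 0.012) by the authors' deposited table. Per kilobase of GENCODE 29 exon, its level was 11065 normalised reads over both conditions, against 2605 for HIST1H1C, 441.4 for HIST1H2BJ, 387 for HIST1H2BD, 292.8 for HIST1H4C and 263.3 for HIST1H2AC. These lengths need not be those the authors counted over, and a short annotated exon raises the value.

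HIST2H2BE, the called gene outside HIST1 (coding part at chr1:149857813-149858190 on hg19, minus strand), had 572, 615 and 467 normalised reads under A, against 146, 183 and 231 under B. The lowest library of condition A lay well above the highest of condition B, and the deposited log2 ratio was 1.56 (SE 0.20, DESeq adjusted p = 8.69e-12, the authors' deposited table). Leaving out each library in turn kept its ratio between 1.41 and 1.75. HIST1H2BJ had 574, 506 and 510 under A, against 312, 304 and 310 under B. Both groups were tight, with a log2 ratio of 0.78 (SE 0.14, DESeq adjusted p = 3.96e-06) by the authors' deposited table.

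The other called H2B genes ranged widely in size of difference. HIST1H2BD had 417, 437 and 353 normalised reads under A, against 297, 247 and 271 under B, a log2 ratio of 0.56 by the authors' deposited table (DESeq adjusted p = 0.00475). HIST1H2BC had 125, 120 and 125 under A, against 89.8, 62.8 and 76.8 under B (log2 ratio 0.69, DESeq adjusted p = 0.0307, the authors' deposited table). Neither gene's libraries overlapped between the conditions. HIST1H2BG had 91.8, 70.2 and 59.9 under A, against 25.7, 32.4 and 48.4 under B (log2 ratio 1.06, DESeq adjusted p = 0.0197, the authors' deposited table). HIST1H2BF had 78.6, 69.2 and 75.5 under A, against 37.6, 20.9 and 25.2 under B (log2 ratio 1.41, DESeq adjusted p = 2.44e-05, the authors' deposited table). HIST1H2BG had the narrower gap of these 2 genes, with 59.9 as its lowest library under A and 48.4 as its highest under B.

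HIST1H2BN, an uncalled H2B gene, had 137, 145 and 122 normalised reads under A, against 139, 135 and 134 under B. Its groups overlapped, and the authors' deposited table gave a log2 ratio of -0.01 (DESeq adjusted p = 1). It overlaps HIST1H2AL on the same strand and HIST1H2AK on the opposite strand in GENCODE 29. HIST1H2BO, HIST1H2BL, HIST1H2BM and HIST2H2BF, with means of 10 to 50, had log2 ratios of 0.36 to 0.86 by the authors' deposited table and overlapping libraries.

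H3 genes had the largest log2 ratio of summed reads of the 5 classes, 0.83, and 4 of 13 were called. HIST1H3H (coding part at chr6:27777852-27778259 on hg19, plus strand), with 47.9% of the class's reads, had 224, 248 and 187 normalised reads under A, against 151, 122 and 105 under B. Its libraries did not overlap (log2 ratio 0.80, SE 0.19, DESeq adjusted p = 0.00177, the authors' deposited table). HIST1H3B had 40.5, 43.9 and 59.9 under A, against 19.2, 14.3 and 12.6 under B (log2 ratio 1.64, SE 0.34, DESeq adjusted p = 0.00025, the authors' deposited table). This was the largest ratio among H3 genes with a mean of at least 10, on few reads.

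HIST1H3J had 81.9, 52.7 and 56.0 normalised reads under A, against 24.7, 26.7 and 27.3 under B (log2 ratio 1.27, DESeq adjusted p = 0.00228, the authors' deposited table). HIST1H3D had 78.6, 71.2 and 65.1 under A, against 41.2, 38.1 and 46.3 under B. The authors' deposited table put HIST1H3D just under the threshold, at a log2 ratio of 0.77 and a DESeq adjusted p of 0.0499. HIST1H3I and HIST1H3G had log2 ratios of 0.26 and -0.20 by the authors' deposited table with overlapping libraries, and 7 more H3 genes had means under 10.

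H4 genes, nearly all of which encode the same protein, gave 3 calls of 14 and the largest log2 ratio of members whose mean was 10 or more. HIST1H4I (coding part at chr6:27107088-27107396 on hg19, plus strand) had 259, 216 and 161 normalised reads under A, against 61.4, 49.5 and 55.7 under B. The lowest library of condition A was far above the highest of condition B (log2 ratio 1.93, SE 0.32, DESeq adjusted p = 4.64e-07, the authors' deposited table), although condition A's libraries spread more than those of condition B. Leaving out each library in turn gave ratios of 1.76 to 2.09. HIST1H4H had 254, 215 and 206 under A, against 155, 130 and 123 under B (log2 ratio 0.72, DESeq adjusted p = 0.00119, the authors' deposited table). HIST1H4E had 30.6, 35.1 and 36.4 under A, against 9.16, 14.3 and 16.8 under B (log2 ratio 1.34, DESeq adjusted p = 0.0177, the authors' deposited table).

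HIST1H4C and HIST4H4, the other H4 genes with a mean of at least 50, were not called. HIST1H4C had 137, 111 and 117 normalised reads under A, against 168, 95.2 and 136 under B. Its libraries overlapped, with a log2 ratio of -0.12 (DESeq adjusted p = 1) by the authors' deposited table. HIST4H4, the single gene of the HIST4 cluster, had 112, 123 and 70.3 under A, against 48.6, 55.2 and 72.6 under B, a log2 ratio of 0.79 with overlapping libraries (DESeq adjusted p = 0.178, the authors' deposited table). HIST1H4K had 0.62 and HIST1H4B -0.44 as log2 ratios by the authors' deposited table, both on means under 25.

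The 5 classes were then compared by the summed normalised reads of each library. H1 genes summed to 2039 ± 93.5 under A and 1571 ± 86.8 under B (SD, n = 3 libraries each, as for the other classes), and H2A genes to 1062 ± 103 under A and 864.0 ± 3.71 under B. H2B genes summed to 6842 ± 357 under A and 4732 ± 47.0 under B, H3 genes to 462 ± 21.4 under A and 259 ± 26.2 under B, and H4 genes to 743 ± 101 under A and 446 ± 43.9 under B. In all 5 classes every library of condition A lay above every library of condition B. The log2 ratios of the sums were 0.38 for H1, 0.30 for H2A, 0.53 for H2B, 0.83 for H3 and 0.74 for H4. Differences between classes were not tested, since members of a class share libraries and sequence.

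A sum can rest on 1 gene. Without HIST1H1C the H1 ratio was -0.11, without HIST1H2AC the H2A ratio was 0.57, and without HIST1H2BK the H2B ratio was 0.82. The median log2 ratio of members with a mean of at least 10, by the authors' deposited table, was 0.04 for 4 H1 genes, 0.75 for 10 H2A genes, 0.63 for 12 H2B genes, 0.79 for 6 H3 genes and 0.72 for 7 H4 genes. These medians moved with the limit on the mean. Among genes with a mean of 50 or more they were 0.34 for 2 H1 genes, 0.35 for 4 H2A genes, 0.73 for 8 H2B genes, 0.79 for 2 H3 genes and 0.76 for 4 H4 genes, and over all genes with reads in both conditions the H4 median was 0.067, against 0.62 for H3.

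**Figure D3:**
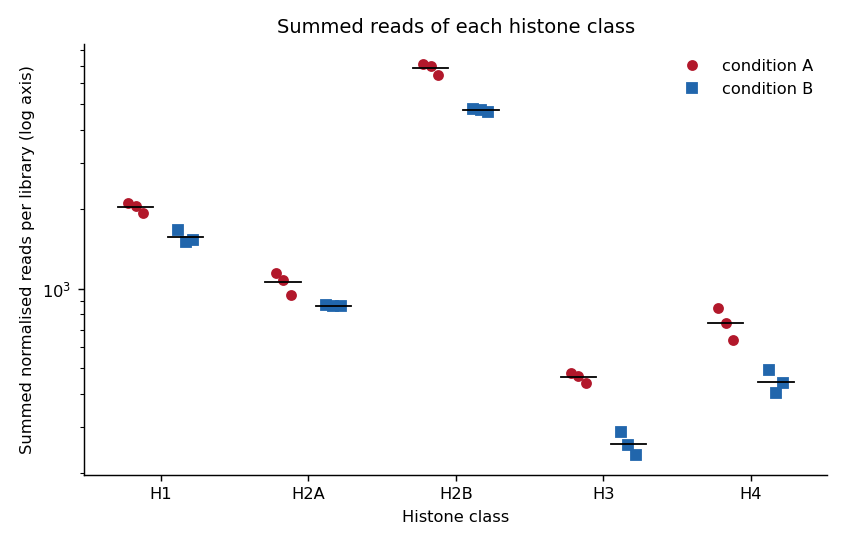
Summed normalised reads of each histone class in each recovered library, on a log axis, with red circles for condition A left of blue squares for condition B and black lines for the means. Every class had all 3 libraries of condition A above those of condition B, with the widest gap on this axis in H3, at means of 462 for condition A against 259 for condition B.

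Low members gave no calls. The 25 genes with a mean under 10 normalised reads had 0 calls by DESeq according to the authors' deposited table, 0 at an unadjusted p under 0.05 (smallest p 0.0588), and 0 by limma with no filter. Of these, 8 had a higher mean under A and 17 a lower one, and their summed means were 70.8 under A and 78.3 under B. No such gene had more than 51 reads over the 6 libraries, and whether a difference could be detected at that depth was not tested. They included 7 H3 genes, 7 H4 genes, 5 H2B genes, 4 H2A genes and 2 H1 genes.

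By cluster, HIST1 had 15 of 53 genes called and a log2 ratio of summed reads of 0.46. Its coding parts run over chr6:26017316-27861618 on hg19, in a first stretch of 32 members and a second of 21 with other genes between. The first stretch had 9 calls and a ratio of summed reads of 0.41, and the second 6 calls and 0.50. HIST2 (chr1:149754792-149859466) had 1 call among 7 genes, HIST2H2BE, which held nearly all its reads: 615.3, 664.1 and 498.4 summed normalised reads under A, against 179.6, 220.8 and 267.2 under B, a log2 ratio of 1.41. HIST3 (chr1:228612619-228646208) and HIST4 (chr12:14923710-14924018) had 0 calls by DESeq among 4 genes, with 1 higher at an unadjusted p under 0.05 and 0 of 2 tested by limma, and log2 ratios of 0.15 and 0.79.

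Genes of other kinds inside the HIST1 span, among them butyrophilin and zinc finger genes, mostly had log2 ratios below 0. Of 14 such rows, 0 were called by DESeq according to the authors' deposited table (smallest adjusted p 0.0992), with 0 higher and 2 lower at an unadjusted p under 0.05, and limma called 0 higher and 1 lower, HFE, of 11 tested. The 11 with a mean of at least 10 had a median log2 ratio of -0.11 by the authors' deposited table, with 10 of 11 below 0. They ranged from -0.56 for HFE, which lies between histone genes of the first stretch, to 0.12 for ABT1. HIST1 members with a mean of at least 10 had a median of 0.65 over 34 genes by the authors' deposited table.

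**Figure D4:**
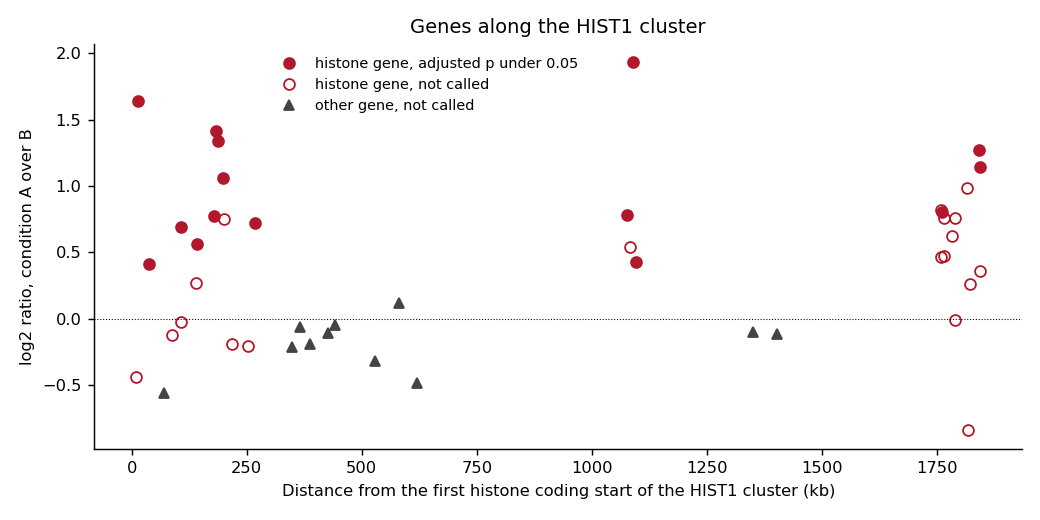
Log2 ratio of condition A over condition B for genes of the HIST1 cluster with a mean of at least 10, against distance in kb from the first histone coding start. Filled and open circles are called and uncalled histone genes and triangles are 11 other genes, which lie between -0.56 and 0.12, while called histone genes stand in both stretches.

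Many H2A and H2B genes are transcribed away from each other across a shared promoter, and 11 such pairs had coding starts 303 to 334 bases apart. In 8 pairs both genes had a mean of at least 10. Of these 8, 4 H2B genes and 1 H2A gene were called by the authors' deposited table, and in 0 pairs were both. The H2B gene had the higher log2 ratio in 4 of the 8, with medians of 0.58 for H2B and 0.75 for H2A by the authors' deposited table.

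Partners across 1 promoter could differ. HIST2H2BE had a log2 ratio of 1.56 by the authors' deposited table, against -0.03 for HIST2H2AC, which starts 334 bases away. HIST2H2AC had 23.2, 26.3 and 11.7 normalised reads under A, against 25.7, 20.9 and 15.8 under B, with overlapping libraries. HIST1H2BC had 0.69, against -0.02 for HIST1H2AC, by the authors' deposited table. HIST1H2BO (0.36) and HIST1H2BN (-0.01) lay the other way round, below HIST1H2AM (1.14) and HIST1H2AK (0.76) by the authors' deposited table. Partners were closer in HIST1H2BJ and HIST1H2AG, at 0.78 and 0.54, and in HIST1H2BG and HIST1H2AE, at 1.06 and 0.75, again by the authors' deposited table. Differences within a pair were not tested.

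Levels within pairs also differed widely. HIST1H2BK had 547 times the normalised reads of HIST1H2AH, and HIST1H2BF 50.7 times those of HIST1H2AD, over both conditions. HIST3H2BB had 0.0326 times the reads of HIST3H2A. These ratios are of reads per gene, without a correction for length.

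**Figure D5:**
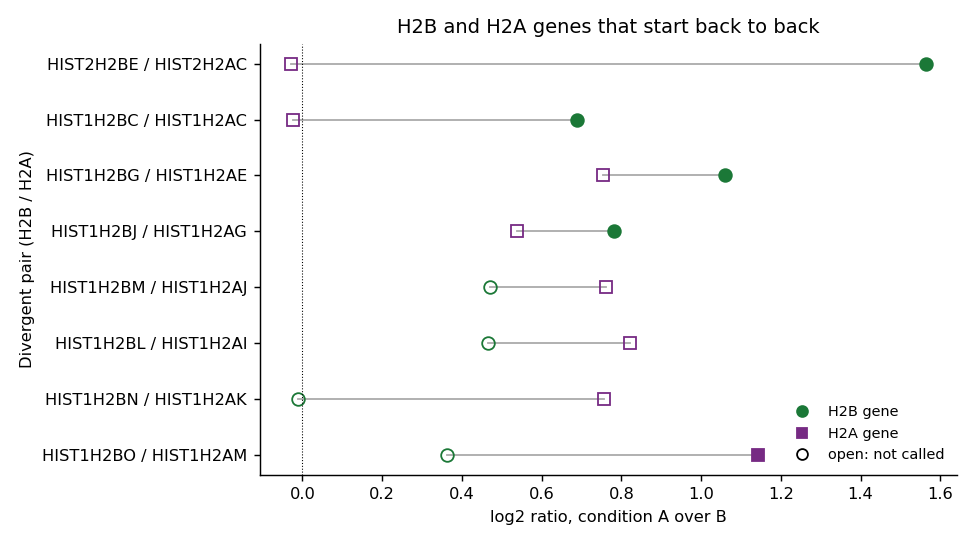
Log2 ratio of condition A over condition B for the 8 divergent pairs in which both genes had a mean of at least 10, with green circles for H2B genes and purple squares for H2A genes, filled where called by the authors' deposited table. HIST2H2BE at 1.56 and HIST2H2AC at -0.03 lie furthest apart, and no pair has both symbols filled.

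Members of a class are alike in sequence, so a read may match several of them. How the counting treated such reads was not tested, and reads may be missing from some members or assigned to another. For 61 members a coding sequence was found in GENCODE 29, and 53 had another member of the same coding length. The closest of these was 82.6% to 100% identical, with a median of 89.0%, and HIST1H4J and HIST1H4K were identical. In addition, 13 members overlap another gene in GENCODE 29, and since the strand setting of the counting is not given, overlapping genes cannot be told apart with certainty.

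Genes that act on histone genes and messages were looked at as lists. Of 8 genes of histone transcription, 7 had a row and 0 were called by DESeq according to the authors' deposited table, with 1 higher and 2 lower at an unadjusted p under 0.05. NPAT, the coactivator of histone genes, had 6144 normalised reads under A and 5823 under B (log2 ratio 0.08, DESeq adjusted p = 1, the authors' deposited table). POU2F1, which binds the octamer, had a log2 ratio of 0.39 (DESeq adjusted p = 0.349), and E2F1, a factor of S phase entry, -0.35 (DESeq adjusted p = 0.0637), by the authors' deposited table. Among the 4 genes whose reads were recovered, limma called 1, CCNE2, a cyclin of S phase entry, lower (-0.47, adjusted p = 0.0418).

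Of 16 genes of histone message processing and decay, 0 were called by DESeq according to the authors' deposited table, with 1 higher and 0 lower at an unadjusted p under 0.05 and 0 of 9 tested by limma. SLBP, which binds the stem-loop, had 11421 normalised reads under A and 10892 under B (log2 ratio 0.07, DESeq adjusted p = 1, the authors' deposited table). A median log2 ratio of 0.10 was found for this list. Of 14 histone chaperones, 0 were called by DESeq according to the authors' deposited table, with 2 higher and 1 lower at an unadjusted p under 0.05 and 0 of 5 tested by limma, at a median of 0.05.

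DNA replication genes, which like histone genes are used in S phase, had 1 of 29 called higher and 0 lower by the authors' deposited table, with 4 higher and 1 lower at an unadjusted p under 0.05 and 1 higher and 0 lower of 12 tested by limma. Replication genes had a median log2 ratio of 0.11 by the authors' deposited table, below the median of the histone members. Their part in the histone difference was not tested.

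Histone variant genes outside the clusters, whose messages mostly carry poly(A) tails, had 0 of 12 called by DESeq according to the authors' deposited table. At an unadjusted p under 0.05, 3 were higher and 0 lower. Of 8 tested, limma called 1 higher, CENPA of the centromere (0.33, adjusted p = 0.0483). Variant genes had a median log2 ratio of 0.24 over the 11 with a mean of at least 50. Over all 12 the range was -0.12 to 0.58. All rows with a mean of at least 50 had a median of -0.0024, and histone members with such a mean had 0.71, by the authors' deposited table.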

How the data were processed

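RNA of 3 knockdown and 3 scrambled samples was sequenced. The submitters' processing notes name STAR, HTSeq 0.5.4p5, DESeq 1.14.0 and the build hg19, without their roles. Annotation release and strand use in counting: not given in the sources used here. The deposited table, per the file headers, gives a mean over both conditions and one for each, a signal in normalised reads that the authors made by dividing counts by size factors. Its deposited fold is a ratio with condition A as the denominator, and the deposited log2 value, the logarithm of that fold, is given with its sign turned. The p-value deposited by the authors came with a Benjamini-Hochberg adjustment that covers all 34675 rows, which was recomputed. The other deposited file lists hg19 coding intervals, counted from 1, with a score that was not used. There were 0 further columns of values per sample.

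Genes were called at the deposited adjusted p of 0.05, the rule the design set for such a table. A standard error of a log2 ratio is its size divided by the normal quantile of the deposited p, an approximation. Each mean was printed with 15 digits and is a weighted sum of 3 whole read numbers, so those numbers were found by an integer search for means up to 5500. A single solution was found for 32651 of 32657 rows of condition A and for all 32738 rows of condition B. For means over 800, each library had to lie at 0.6 to 1.6 times the mean. Size factors were 1.21, 1.03 and 0.768 for the libraries of condition A, and 1.09, 1.05 and 0.951 for those of condition B. The reads were tested with limma 3.58.1 (trend) in R 4.3.3 on log2(normalised reads + 0.5) in rows with a mean of 10 or more, and the steps were checked on simulated data. That scale understates the change of low genes.

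The text names every called member, the 3 members with the highest mean of each class, uncalled members with a log2 ratio of 0.5 or more in size at a mean of 50 or more, called genes of the lists, and SLBP, NPAT and PRDM11. Other genes were named after their values were seen, and some genes that the rule names are left out here. The members and the lists were chosen with earlier results of these data known. GENCODE 29 gave gene types, exon lengths, transcripts and overlaps, and RefSeq the promoters. Alternatives changed the adjustment, threshold, test, pseudocount, scaling, filter and libraries.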

Additional observations from a re-analysis of the deposited data

How the results depend on the processing

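The 16 member calls became 9 when p-values were adjusted over rows with a mean of at least 100, where fewer members are tested, and 9 at an adjusted p under 0.01. They were 17 over rows with a mean of at least 10, 17 at an adjusted p under 0.1 and 19 by limma. Centring also gave 16, a number fixed in advance because it kept the deposited adjusted p-values. The 19 limma calls were 19 with a pseudocount of 5, 19 when scaled to total recovered reads and 21 with no filter on low values. Leaving out each library in turn gave 8 to 21 calls, on 2 libraries against 3. Without its top member, the log2 ratio of summed reads was -0.11 for H1, 0.57 for H2A and 0.82 for H2B. Taking members whose mean was 50 or more, the median log2 ratio was 0.34 for H1 and 0.35 for H2A, on 2 and 4 genes. Over all members with reads in both conditions, the median was -0.34 for H1 and 0.067 for H4. The causes of these shifts were not tested.

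Called genes of the transcription list went up by 1 when p-values were adjusted over rows with a mean of at least 10 or at least 100 (E2F1, lower) and by limma (CCNE2, lower), giving 1 each time. The DNA replication list had 2 calls, RRM2 among them, under both of those adjustments, and the variant list had 1, CENPA, by limma. Log2 ratios of 23 members were recomputed with a library left out, centring or another scaling. Of these values, 184 of 184 moved by less than the spread between replicates. Dropping 1 library can hardly move a mean beyond that spread, and centring only subtracted a median of -0.0024 from every ratio. For both the outcome was nearly fixed in advance, so nothing is concluded from it. No paired analysis was possible because the recovered libraries carry no replicate number. Genes with means under 10 had at most 51 reads over the 6 libraries, whose power to show a difference was not tested, and which condition is the knockdown is not given.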
